A study of Homo sapiens with 24 samples.

Results

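Polycomb repressive complex 2 (PRC2) and the DNA methyltransferases are the writers of a pair of repressive chromatin marks, and 9 of their genes were followed here through treatment with I-BET762. They are EZH2, EZH1, SUZ12, EED and JARID2 of PRC2, and DNMT1, UHRF1, DNMT3A and DNMT3B of DNA methylation. The genes were taken by name, as those of the 19775 genes on the array that belong to this list. The platform annotation gave them 20 probe sets of their own. Each gene is described by its brightest probe set and the remaining 11 are given where they differ.

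I-BET762, also called GSK525762A, is a small molecule that occupies the acetyl-lysine binding pockets of the BET bromodomain proteins and displaces them from chromatin. LNCaP, VCaP, PC3 and NCI-H660 cells, 4 established human prostate cancer lines, were grown with DMSO (vehicle), 0.5 µM or 10 µM I-BET762 for 24 hours. LNCaP and VCaP come from metastases of androgen receptor positive adenocarcinoma, PC3 from a bone metastasis, and NCI-H660 from a neuroendocrine tumour. Each of the 12 groups held 2 independent biological replicates, so RNA was measured on 24 Affymetrix U133 Plus 2.0 arrays. Values are MAS5 signals, a linear brightness that is scaled to a mean of 500 on every array, and a signal under 100 is treated as near background. A signal is an average over the culture, so a change shared by all cells and a larger change in some of them cannot be told apart.

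In PRC2, either EZH2 or its relative EZH1 adds methyl groups to a lysine of histone H3, and does so only when held by SUZ12 and EED. JARID2 is a subunit that helps bring the complex to its target genes. DNA methylation is copied onto new strands after replication by DNMT1, which UHRF1 guides to hemimethylated CpG sites, while DNMT3A and DNMT3B place methyl groups on unmethylated DNA. EZH2 is widely studied in prostate cancer because its level rises in advanced disease, and EZH2, UHRF1 and DNMT1 are also known as genes that proliferating cells express.

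The arrays labelled LNCaP and VCaP went against their labels in genes that mark these lines. ERG, which VCaP expresses through a gene fusion, ranged from 2867 to 7084 on the arrays labelled LNCaP and from 5.855 to 28.3 on those labelled VCaP. ETV1, which is rearranged in LNCaP, ranged from 14.53 to 90.33 and from 191.7 to 407.8. The sets are therefore called by their labels throughout, and no statement below on PC3 or NCI-H660, or on the pair of labelled sets together, depends on which is which. PC3 and NCI-H660 carried their own markers: CAV1 lay between 8049 and 18410 in PC3, and CHGA between 1692 and 2592 in NCI-H660. ERG, which NCI-H660 is also known to carry as a fusion, stayed near background there, between 65.54 and 142.7. Replicate arrays correlated at 0.9338 to 0.9528 over all log2 signals, and 44.35% to 50.05% of probe sets reached a signal of 100.

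The stretches around the transcription start were read for letters bound by E2F factors, which drive S-phase genes, because several of the genes below moved alongside replication genes. The windows come from RefSeq on GRCh38.p14, run from 250 bases before the start to 50 bases after it, and were found for all 9 genes (18 windows). The letters searched were TTTCCCGC, TTTGGCGC, TTTCGCGC and TTTGCCGC, on both strands. They were present in 6 of the 18 windows, which belong to 5 of the 9 genes, against 3.31% of 35116 windows of the same length. That share counts windows, not genes. It was not matched for CpG content, although each of the searched words holds a CG, so it does not measure enrichment. The first window of each of the 5 genes with a match is printed 5′ to 3′ on the gene's own strand, with the matching letters in capitals. These are UHRF1 (chr19:4909251-4909550, plus strand), DNMT1 (chr19:10194904-10195203, minus strand), EZH2 (chr7:148884242-148884541, minus strand), EZH1 (chr17:42744991-42745290, minus strand) and SUZ12 (chr17:31936757-31937056, plus strand).
UHRF1: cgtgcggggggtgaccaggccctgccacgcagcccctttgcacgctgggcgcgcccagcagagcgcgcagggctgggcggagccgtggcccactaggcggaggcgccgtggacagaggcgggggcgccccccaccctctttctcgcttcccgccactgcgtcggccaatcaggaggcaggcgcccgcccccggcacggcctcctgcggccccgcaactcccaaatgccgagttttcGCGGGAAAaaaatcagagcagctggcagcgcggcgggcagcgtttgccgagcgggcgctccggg
DNMT1: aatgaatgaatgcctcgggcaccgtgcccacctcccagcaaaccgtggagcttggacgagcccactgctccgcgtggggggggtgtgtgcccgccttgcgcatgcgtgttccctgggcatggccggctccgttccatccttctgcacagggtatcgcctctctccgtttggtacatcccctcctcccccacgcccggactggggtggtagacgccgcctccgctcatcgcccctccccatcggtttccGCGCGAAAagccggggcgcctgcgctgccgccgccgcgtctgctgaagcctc
EZH2: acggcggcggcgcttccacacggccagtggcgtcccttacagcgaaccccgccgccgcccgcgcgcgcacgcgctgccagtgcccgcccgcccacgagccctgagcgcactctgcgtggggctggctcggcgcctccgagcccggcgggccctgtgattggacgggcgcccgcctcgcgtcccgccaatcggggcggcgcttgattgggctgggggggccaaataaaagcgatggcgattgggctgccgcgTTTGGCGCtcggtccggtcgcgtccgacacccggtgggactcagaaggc
EZH1: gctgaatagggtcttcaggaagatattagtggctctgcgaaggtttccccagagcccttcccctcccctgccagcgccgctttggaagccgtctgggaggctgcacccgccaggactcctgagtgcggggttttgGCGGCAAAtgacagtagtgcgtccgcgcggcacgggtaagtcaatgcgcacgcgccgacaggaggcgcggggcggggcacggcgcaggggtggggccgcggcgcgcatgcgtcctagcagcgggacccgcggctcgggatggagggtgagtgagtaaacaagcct
SUZ12: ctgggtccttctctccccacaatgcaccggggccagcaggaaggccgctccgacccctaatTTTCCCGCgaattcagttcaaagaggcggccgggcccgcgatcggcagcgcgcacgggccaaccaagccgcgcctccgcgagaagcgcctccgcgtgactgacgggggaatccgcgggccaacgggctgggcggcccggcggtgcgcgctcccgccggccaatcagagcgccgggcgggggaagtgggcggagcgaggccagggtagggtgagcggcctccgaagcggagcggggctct

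Where the match lies on the opposite strand, as in UHRF1, DNMT1 and EZH1, the capitals show the complement of the letters in reverse order. The first base of the match lay 14 bases before the start in UHRF1 and at base 2 of the transcript in EZH2. A second UHRF1 window, at chr19:4909894-4910193, held TTTCGCGC as well. No match was found in the windows of EED, JARID2, DNMT3A or DNMT3B. The E-box CACGTG, the letters bound by MYC and MAX, was present at a single DNMT3A site that 2 overlapping windows share. It was in no window of the other 8 genes, and in 7.26% of all windows. As the values below show, the genes with a match in their window include genes that fell, a gene that rose and a gene that did not pass the test, and a match of letters is not evidence of binding.

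**Figure D1:**
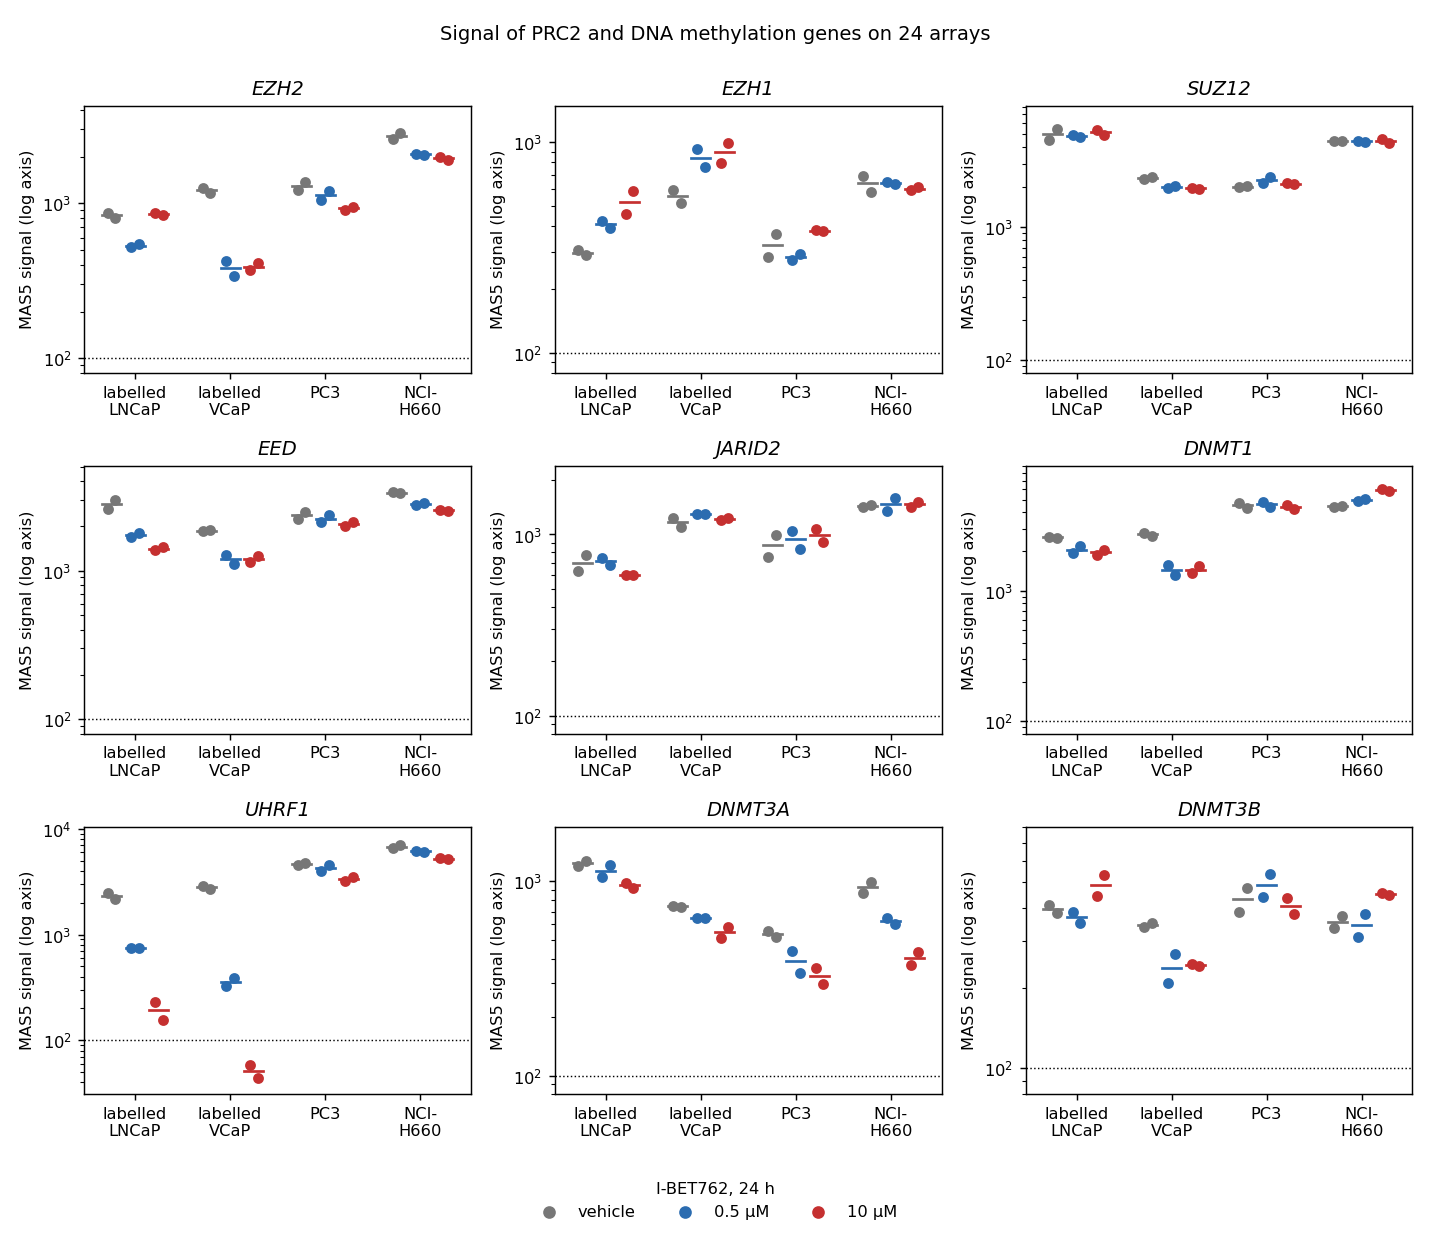
MAS5 signal (log axis) of the 9 genes on each of the 24 arrays, by labelled line, with vehicle in grey, 0.5 µM in blue and 10 µM in red. Dots are single arrays, short lines the mean of the pair, and the dotted line the signal of 100; UHRF1 on the arrays labelled VCaP at 10 µM is the only group with a mean under it.

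The question asked of each gene was whether I-BET762 moved it away from vehicle, in which lines, and at which concentration. A gene was counted as changed where limma, fitted to the log2 signals of all 24 arrays, gave an adjusted p under 0.1 and either group had a mean signal of at least 100. All 9 genes were above that signal in every vehicle group. At 0.5 µM, 4 fell and none rose on the arrays labelled LNCaP, where 33.9% of all detected genes changed, 16.5% falling and 17.4% rising. On those labelled VCaP 5 fell and 1 rose, against a background of 25.0% changed, 13.2% lower and 11.8% higher. In PC3 limma called 0 (background 11.1%, with 4.44% lower and 6.66% higher; 1 gene, DNMT3A, had an unadjusted p under 0.05), and in NCI-H660 1 fell (background 7.64%, with 3.27% lower and 4.36% higher), a call lost when any of the 4 arrays behind it was left out.

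The higher concentration gave 4 lower and 1 higher on the arrays labelled LNCaP, where 53.8% of all detected genes changed (26.7% lower, 27.1% higher), and 6 lower and 1 higher on those labelled VCaP, where 41.9% did (21.8% lower, 20.1% higher). In PC3 2 fell (background 30.2%, with 14.0% lower and 16.1% higher), and 1 did without vehicle replicate 2 or 10 µM replicate 1. In NCI-H660 3 fell and 1 rose (background 33.8%, with 16.8% lower and 16.9% higher). Without its vehicle or 10 µM replicate 1 that count of 4 was 2, and without replicate 2 of either it was 1. With the LNCaP label at 10 µM the count of 5 became 3 without vehicle or 10 µM replicate 1, and with the VCaP label at 10 µM the count of 7 became 4 without vehicle replicate 2. The median change of the 9 genes was furthest from zero on the arrays labelled VCaP, at -0.54 and -0.5 on the log2 scale, beside 0.03 and 0.02 for all detected genes. It was -0.07 at each concentration in PC3, where the median gene stood at 0.

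**Figure D2:**
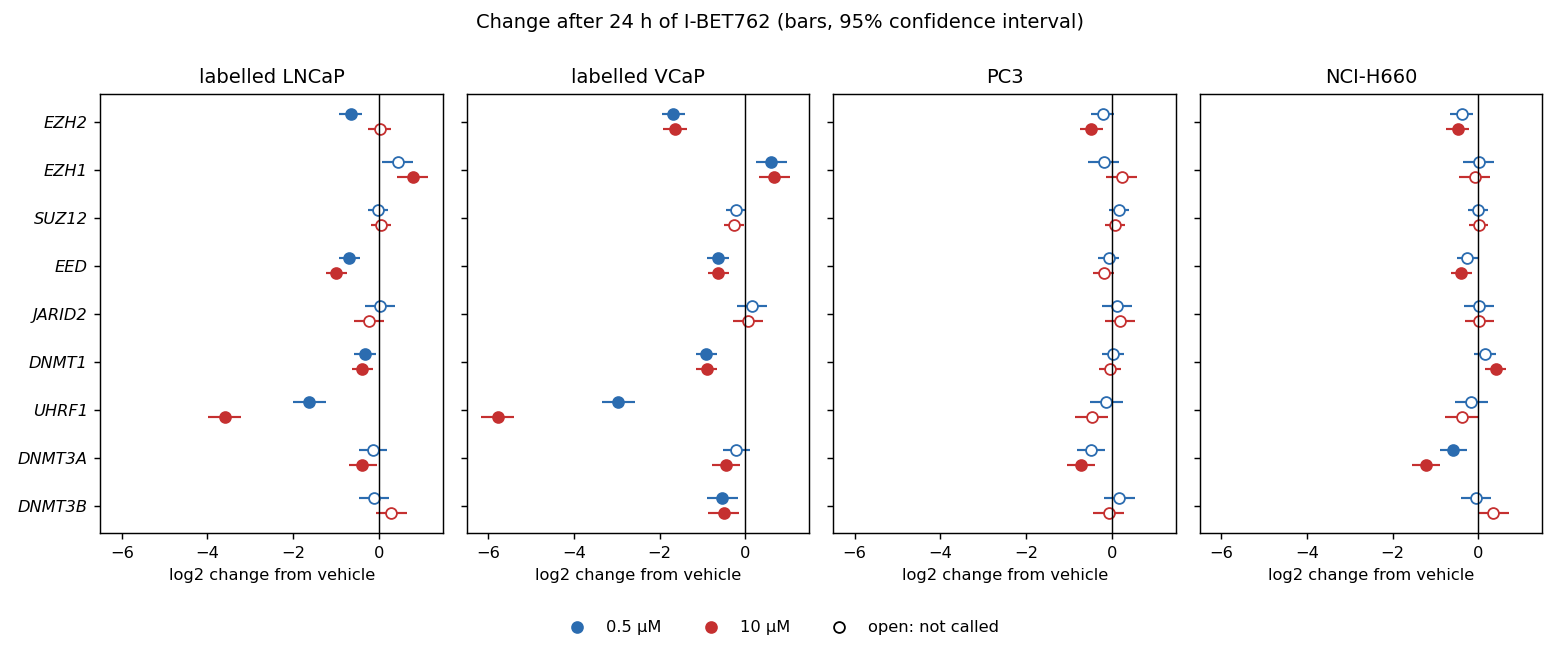
Log2 change from vehicle (limma) of each gene at 0.5 µM (blue) and 10 µM (red), with its 95% confidence interval; filled dots were called changed and open dots were not. UHRF1 lies far to the left on both labelled sets. In PC3 and NCI-H660 it was not called and lies at -0.47 and -0.38 at 10 µM. Its dot for the arrays labelled VCaP at 10 µM rests on a group under a signal of 100.

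UHRF1, the guide of maintenance methylation, had the largest fall of the 9 genes. Its signals on the arrays labelled LNCaP were 2467 and 2145 in vehicle, 745.8 and 753.8 at 0.5 µM, and 231 and 156.4 at 10 µM. On those labelled VCaP they were 2892 and 2709, then 327.4 and 391.6, then 58.93 and 44.07. In both sets every array at a higher concentration lay below every array at the lower one. limma put the falls on the arrays labelled LNCaP at 3.07-fold (log2 change -1.62, SE 0.18, adjusted p = 5.84e-05) and 12.1-fold (-3.6, SE 0.18, adjusted p = 1.37e-08). Those labelled VCaP gave a fall of 7.82-fold at 0.5 µM (-2.97, SE 0.18, adjusted p = 3.26e-07). At 10 µM the signal there was near background, so UHRF1 was at least 28-fold lower (adjusted p = 9.11e-10).

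UHRF1 also fell from 0.5 to 10 µM, by 1.98 on the log2 scale for the LNCaP label (adjusted p = 3.73e-05), where 19.7% of detected genes changed between the concentrations. For the VCaP label (background 9.91%) it was at least 3.59-fold lower at 10 than at 0.5 µM (adjusted p = 3.8e-06). In PC3 the signals were 4582 and 4746 in vehicle, 3988 and 4579 at 0.5 µM, and 3242 and 3517 at 10 µM. NCI-H660 had 6632 and 6959, then 6131 and 6068, then 5252 and 5189. In each of these lines the treated arrays lay below the vehicle arrays, but the changes of -0.47 and -0.38 at 10 µM did not pass the test (adjusted p = 0.129 and 0.212). The 95% intervals of those changes ran from -0.85 to -0.08 and from -0.77 to 0.01. The fall in PC3 passed with an intensity trend in the variance and in 2 of the 24 fits that left out 1 array.

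EZH2, the catalytic subunit of PRC2 in dividing cells, fell on the arrays labelled VCaP at both concentrations. Its signals there were 1259 and 1171 in vehicle, 422.7 and 340.4 at 0.5 µM, and 370.3 and 410.3 at 10 µM. The treated arrays all lay well below the vehicle arrays and overlapped each other. The fall was 3.2-fold at 0.5 µM (-1.68, SE 0.13, adjusted p = 1.77e-06) and 3.12-fold at 10 µM (-1.64, SE 0.13, adjusted p = 1.15e-06). The higher concentration gave no further change (0.04, 95% interval -0.23 to 0.31).

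The arrays labelled LNCaP behaved otherwise. EZH2 stood at 860.6 and 807.2 in vehicle, fell to 521 and 541.9 at 0.5 µM, and was at 859.8 and 834.5 at 10 µM, so the arrays at 10 µM overlapped vehicle. The fall at 0.5 µM was 1.57-fold (-0.65, SE 0.13, adjusted p = 0.00361). At 10 µM the change from vehicle was 0.02 (95% interval -0.25 to 0.29, adjusted p = 0.936), and EZH2 was 1.59-fold higher than at 0.5 µM (0.67, SE 0.13, adjusted p = 0.00583). Of all genes detected there, 9.44% were higher at 10 than at 0.5 µM, and EZH2 was the only one of the 9 genes among them. The same arrays had UHRF1 at its lowest signals for that label, so the pair of genes moved apart between the concentrations.

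In PC3, EZH2 signals were 1223 and 1377 in vehicle, 1052 and 1203 at 0.5 µM, and 906.1 and 949.3 at 10 µM. In NCI-H660 they were 2594 and 2839, then 2092 and 2051, then 1985 and 1906. The treated arrays were below vehicle in both lines, and the fall passed the test at 10 µM, by 0.48 on the log2 scale in each (SE 0.13; adjusted p = 0.0234 and 0.0216, in that order). At 0.5 µM the changes of -0.21 and -0.39 did not pass (adjusted p = 0.49 and 0.157). Centring every array on its median moved the 10 µM changes to -0.45 and -0.3, and neither then passed.

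EZH1, which can take the place of EZH2 in PRC2 and is less tied to cell division, rose with both labels. On the arrays labelled VCaP it went from 594.2 and 515.1 in vehicle to 922.9 and 763.9 at 0.5 µM and 795.4 and 991.4 at 10 µM. All treated arrays lay above vehicle, with a rise of 1.52-fold (0.6, SE 0.17, adjusted p = 0.0434) and 1.61-fold (0.68, SE 0.17, adjusted p = 0.0121). Neither call was kept with the line fitted alone, and that at 0.5 µM was also lost with median centring (0.54). Each was lost in 2 of the 24 fits that left out 1 array, with changes of 0.47 to 0.74 and of 0.52 to 0.84. The arrays labelled LNCaP had 306.7 and 290.7 in vehicle, 422.9 and 390.5 at 0.5 µM, and 455.7 and 588.6 at 10 µM. There the rise passed at 10 µM (1.73-fold, 0.79, SE 0.17, adjusted p = 0.0031) and not at 0.5 µM (0.44, adjusted p = 0.112), although all treated arrays lay above vehicle.

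EZH1 has 5 probe sets. A second of them, dimmer than the first, was also higher at 10 µM on the arrays labelled LNCaP (at least 2.36-fold, adjusted p = 0.00314, with vehicle under a signal of 100) and VCaP (0.92, adjusted p = 0.056), and the other 3 were not called in any line. With the 5 probe sets averaged, the rise with the LNCaP label at 10 µM was 0.61 and did not pass, while those with the VCaP label did. EZH1 did not pass in PC3 or NCI-H660, where its changes lay between -0.18 and 0.24.

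SUZ12, the subunit that holds PRC2 together, did not pass the test in any line at either concentration, although some alternatives called it lower with the VCaP label. Its signals on the arrays labelled LNCaP were 4500 and 5427 in vehicle, 4942 and 4781 at 0.5 µM, and 5339 and 4949 at 10 µM. Treated arrays overlapped vehicle there, and those at 10 µM lay above those at 0.5 µM. The arrays labelled VCaP had 2297 and 2390, then 1970 and 2045, then 1965 and 1946, with the treated arrays below vehicle (log2 changes of -0.22 and -0.26, adjusted p = 0.266 and 0.128). The second of these, the SUZ12 change furthest from zero, had a 95% interval of -0.49 to -0.03. Both falls passed with an intensity trend in the variance, and the one at 10 µM also passed with median centring (-0.39) and without LNCaP-labelled vehicle replicate 1 or 2. JARID2 did not pass anywhere either, with changes between -0.22 and 0.2. Its group means ran from 597.3, on the arrays labelled LNCaP at 10 µM, to 1470 in NCI-H660 at 10 µM.

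EED, the subunit that reads the histone mark PRC2 makes, fell by its brightest probe set. Signals on the arrays labelled LNCaP were 2619 and 2985 in vehicle, 1681 and 1797 at 0.5 µM, and 1375 and 1438 at 10 µM. On those labelled VCaP they were 1835 and 1891, then 1283 and 1113, then 1148 and 1250. Treated and vehicle arrays did not overlap, and the falls were 1.61-fold and 1.99-fold for the LNCaP label (-0.69 and -0.99, SE 0.11, adjusted p = 0.00134 and 2.25e-05). They were 1.56-fold at each concentration for the VCaP label (-0.64, SE 0.11, adjusted p = 0.00322 and 0.00142).

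In NCI-H660 EED fell at 10 µM, from 3359 and 3348 to 2569 and 2526 (-0.4, SE 0.11, adjusted p = 0.0365), and in PC3 it did not pass (-0.18, adjusted p = 0.407). The second EED probe set, which was much dimmer, had changes above zero in all 8 comparisons, from 0.19 to 0.69. It rose at 10 µM in PC3 (131.3 and 89.08 to 192.4 and 158.2, adjusted p = 0.0318) and in NCI-H660 (349.9 and 361 to 513.7 and 577.3, adjusted p = 0.0485). With the 2 probe sets averaged, EED passed in no line (-0.25 and -0.3 with the LNCaP label, -0.13 and -0.09 with the VCaP label), so its fall is that of the brighter probe set.

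DNMT1, the maintenance methyltransferase, went down on the arrays labelled VCaP and up in NCI-H660. The VCaP-labelled signals were 2771 and 2647 in vehicle, 1569 and 1330 at 0.5 µM, and 1361 and 1544 at 10 µM. The fall was 1.88-fold and then 1.87-fold (-0.91 and -0.9, SE 0.12, adjusted p = 0.000269 and 0.000112). In NCI-H660 the signals went from 4385 and 4489 to 4877 and 5078 at 0.5 µM and to 6005 and 5800 at 10 µM, and the rise passed at 10 µM (1.33-fold, 0.41, SE 0.12, adjusted p = 0.034). That call was lost without any one of the 4 vehicle and 10 µM arrays of the line, with changes of 0.39 to 0.44, and with the line fitted alone.

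The DNMT1 signals labelled LNCaP were 2595 and 2558 in vehicle, 1944 and 2188 at 0.5 µM, and 1896 and 2064 at 10 µM. These falls were small, -0.32 (SE 0.12, adjusted p = 0.0978) and -0.38 (SE 0.12, adjusted p = 0.0294), and the call at 0.5 µM was kept in 2 of the 24 fits that left out 1 array. PC3 signals, from 4249 to 4824 over all doses, overlapped.

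DNMT3A, a de novo methyltransferase, fell most in NCI-H660. Its signals there were 869.6 and 993.8 in vehicle, 645.1 and 602.2 at 0.5 µM, and 369.8 and 433.5 at 10 µM. The concentrations did not overlap, and the falls were 1.49-fold (-0.58, SE 0.15, adjusted p = 0.072) and 2.32-fold (-1.22, SE 0.15, adjusted p = 0.000124). From 0.5 to 10 µM DNMT3A fell by 0.64 on the log2 scale (adjusted p = 0.0453), and it was the only one of the 9 genes to change between the concentrations in NCI-H660, where 7.32% of detected genes did. In PC3, where 2.16% did, no member changed between the concentrations.

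PC3 had DNMT3A at 556.7 and 515.8 in vehicle, 436.6 and 337.1 at 0.5 µM, and 356.7 and 297.9 at 10 µM. The fall of 1.64-fold at 10 µM passed (-0.72, SE 0.15, adjusted p = 0.00678), and that at 0.5 µM did not (-0.48, adjusted p = 0.109). At 10 µM on the labelled sets the changes were -0.38 for LNCaP (adjusted p = 0.0902) and -0.45 for VCaP (adjusted p = 0.0538). The first of these was called in 12 of the 24 fits that left out 1 array. A second DNMT3A probe set was also lower in PC3 at 10 µM (at least 1.26-fold, adjusted p = 0.0263) and the third was not called.

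DNMT3B, the other de novo enzyme, passed on the arrays labelled VCaP, by a narrow margin. It went from 338 and 351.6 to 208.5 and 269.3 at 0.5 µM and to 245.4 and 241.2 at 10 µM (-0.54 and -0.5, SE 0.17, adjusted p = 0.0648 and 0.0548). Treated arrays lay below vehicle there. The call at 0.5 µM was lost without vehicle replicate 1, vehicle replicate 2 or 0.5 µM replicate 1, and that at 10 µM without any one of its 4 arrays. On the arrays labelled LNCaP and in NCI-H660 the 10 µM arrays lay above vehicle, with changes of 0.29 and 0.35 that did not pass (adjusted p = 0.257 and 0.219). The change in NCI-H660 passed as higher with quantile normalization (0.48) and with median centring (0.53).

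Whether the lines differed in their response was tested with interaction contrasts. The mean change of the LNCaP- and VCaP-labelled sets was set against that of PC3 and NCI-H660, a comparison that an exchange of the 2 labels leaves as it is. At 0.5 µM, 5 of the 9 genes differed, against 14.3% of all detected genes. UHRF1 (-2.15, SE 0.18, adjusted p = 2.52e-05), EZH2 (-0.87, SE 0.13, adjusted p = 0.00137), DNMT1 (-0.71, SE 0.12, adjusted p = 0.00348) and EED (-0.5, SE 0.11, adjusted p = 0.023) fell more in the labelled pair. EZH1 rose more there (0.61, SE 0.17, adjusted p = 0.0566), a difference called in 16 of the 24 fits that left out 1 array. The EED difference is that of its brighter probe set, and with all probe sets of a gene averaged 3 genes differed.

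At 10 µM 5 genes differed again, against 32.0% of detected genes. UHRF1 (-4.27, SE 0.18, adjusted p = 3.63e-08, with the VCaP-labelled group near background), DNMT1 (-0.82, adjusted p = 0.000406) and EED (-0.52, adjusted p = 0.00738, by its brighter probe set) fell more in the labelled pair, and EZH1 rose more (0.66, adjusted p = 0.0186). DNMT3A differed in the opposite sense, having fallen more in PC3 and NCI-H660 (0.55, SE 0.15, adjusted p = 0.0242). EZH2 did not pass at 10 µM (-0.33, adjusted p = 0.11).

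The labelled sets also differed from each other. At 0.5 µM, 3 genes fell more on the arrays labelled VCaP than on those labelled LNCaP, where 8.68% of detected genes differed in either direction. They were UHRF1 (difference 1.35, SE 0.25, adjusted p = 0.0111), EZH2 (1.03, SE 0.18, adjusted p = 0.00653) and DNMT1 (0.59, SE 0.17, adjusted p = 0.092). At 10 µM there were 4 (background 21.8%). EZH2 differed by 1.66 (SE 0.18, adjusted p = 9.32e-05) and UHRF1 by 2.18 (SE 0.25, adjusted p = 0.00018, with the VCaP-labelled group near background), while DNMT1 (0.52, adjusted p = 0.0783) and DNMT3B (0.8, adjusted p = 0.058) passed less clearly. Leaving out any of 6 single arrays left EZH2 and UHRF1 as the only ones called. The DNMT1 difference was called in 5 of the 24 fits without 1 array at 0.5 µM and in 15 of 24 at 10 µM.

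EZH2 was then set against each of the other 8 genes within every array, since a ratio within an array does not depend on how the array was scaled and shows unequal change. At 0.5 µM EZH2 fell relative to 5 and rose relative to 1 of the 8 on the arrays labelled LNCaP. Of these 5, the ratios to DNMT3A and DNMT3B (-0.52 and -0.54) were each called in 8 of the 24 fits without 1 array. Against every detected gene there, 64.7% of ratios fell and 3.40% rose. The shares over all ratios, here and below, were adjusted over those ratios alone and not with the table of all probe sets. Their threshold is therefore unlike that of the 8 ratios, and the counts cannot be compared with them directly. On those labelled VCaP it fell relative to 7 and rose relative to 1 at both concentrations, with 94.0% and 90.7% of all ratios lower. A fall of EZH2 itself lowers nearly all its ratios, so the members that stand apart there are those where the ratio did not fall.

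UHRF1 was the exception on the arrays labelled VCaP, where the ratio of EZH2 to UHRF1 rose by 1.29 (SE 0.21, adjusted p = 0.00149) and, as fitted, 4.14 (SE 0.21, adjusted p = 2.95e-08). The UHRF1 mean behind the second value was 51.5, near background, and with UHRF1 held at a signal of 100 there the ratio was at least 8.98-fold higher. Of all ratios of EZH2, 0.650% and 1.58% rose there. For SUZ12, the partner that holds EZH2, the ratio fell by 1.46 (adjusted p = 2.62e-05) and 1.38 (adjusted p = 1.88e-05), and for EED by 1.04 (adjusted p = 5.94e-05) and 1 (adjusted p = 3.27e-05). The ratio of EZH2 to EZH1 fell further, by 2.28 (SE 0.15, adjusted p = 7.95e-07) and 2.32 (SE 0.15, adjusted p = 3.42e-07).

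With the LNCaP label, the ratio of EZH2 to EZH1 fell by 1.09 (adjusted p = 0.000379) at 0.5 µM and by 0.77 (adjusted p = 0.00196) at 10 µM. The ratio to SUZ12 fell by 0.63 at 0.5 µM (adjusted p = 0.0114) and stood at -0.03 at 10 µM (adjusted p = 0.919). The ratio to EED was 0.04 at 0.5 µM (95% interval -0.21 to 0.28) and rose by 1.01 at 10 µM (SE 0.11, adjusted p = 1.59e-05); with the EED probe sets averaged these were -0.4, which passed, and 0.33, which did not. At 10 µM 1 ratio fell and 3 rose, beside 25.0% and 26.0% of all ratios.

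PC3 gave no changed ratio at 0.5 µM (background 15.5% lower and 1.75% higher). At 10 µM EZH2 fell relative to EZH1 (-0.72, adjusted p = 0.0079), SUZ12 (-0.56, adjusted p = 0.0238), JARID2 (-0.68, adjusted p = 0.0357) and DNMT1 (-0.44, adjusted p = 0.0501), where 49.4% of all ratios fell and 3.38% rose. In NCI-H660 EZH2 fell relative to DNMT1 at 0.5 µM (-0.56, adjusted p = 0.0501, background 38.8% lower and 1.18% higher) and further at 10 µM (-0.89, SE 0.13, adjusted p = 0.000557, background 48.5% lower and 5.84% higher). At 10 µM it also fell relative to SUZ12 (-0.49, adjusted p = 0.0426) and DNMT3B (-0.83, adjusted p = 0.0127) and rose relative to DNMT3A (0.73, SE 0.19, adjusted p = 0.0192).

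**Figure D3:**
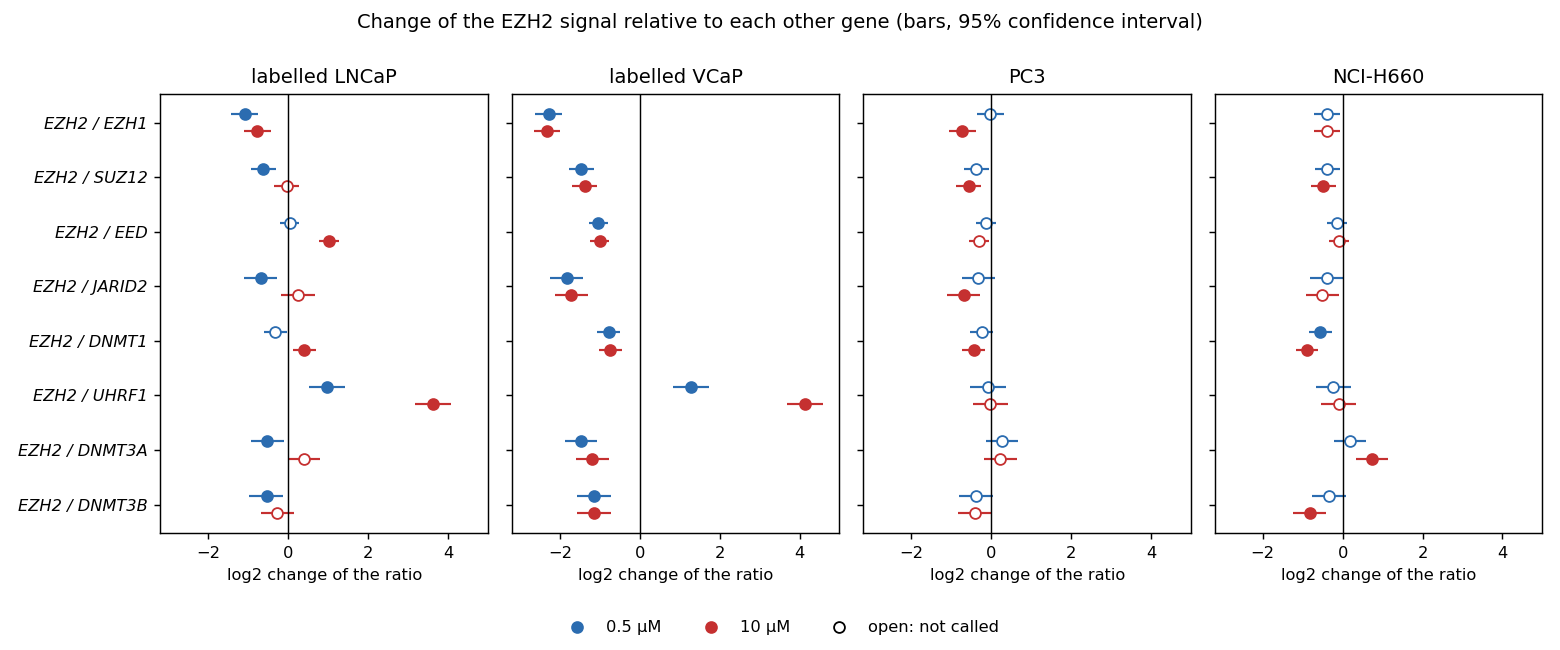
Log2 change from vehicle of the ratio of EZH2 to each of the other 8 genes within an array (0.5 µM blue, 10 µM red; bars, 95% confidence interval; open dots were not called). On the arrays labelled VCaP 7 ratios lie left of 0 and the ratio to UHRF1 lies right of it, at 1.29 and 4.14, the second as fitted with UHRF1 under a signal of 100.

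Before treatment the lines differed as well. Mean vehicle signals of EZH2 were 2717 in NCI-H660, 1300 in PC3, 1215 on the arrays labelled VCaP and 833.9 on those labelled LNCaP. NCI-H660 was above PC3 (-1.06 for PC3 against NCI-H660, adjusted p = 9.81e-06), PC3 and the VCaP label overlapped (adjusted p = 0.632), and the LNCaP label was below the VCaP label (-0.54, adjusted p = 0.00423). UHRF1 kept the same order at 6795, 4664, 2800 and 2306, and the last pair did not differ by the test (adjusted p = 0.288). DNMT3A ran differently, highest on the arrays labelled LNCaP at 1241 and lowest in PC3 at 536.2 (1.21, adjusted p = 1.91e-05). Among the 54 comparisons of a gene between a pair of lines, 36 passed, and between 5 and 7 of the 9 genes did in each pair, beside 61.9% (LNCaP and VCaP labels), 65.6% (LNCaP label and PC3), 71.9% (LNCaP label and NCI-H660), 65.6% (VCaP label and PC3), 71.3% (VCaP label and NCI-H660) and 70.6% (PC3 and NCI-H660) of all detected genes. DNMT3B passed in none.

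Other genes of the same pathways were read from lists written from general knowledge. PHF19, a PRC2 accessory subunit that tethers the complex to methylated histone, fell with the LNCaP label (-1.42, adjusted p = 9.76e-05, and -2.14, adjusted p = 7.11e-07) and with the VCaP label (-1.41, adjusted p = 0.000136, and -1.47, adjusted p = 3.63e-05). It also fell in NCI-H660 at both concentrations (-1.46, adjusted p = 0.000631, and -1.77, adjusted p = 1.63e-05). In PC3 it passed at 10 µM (-1.14, adjusted p = 0.000657). In the list of PRC2 accessory subunits and regulators, 9 genes were detected. With the LNCaP label 1 fell and 3 rose at 0.5 µM (16.5% and 17.4% of detected genes), and 3 fell and 5 rose at 10 µM (26.7% and 27.1%). With the VCaP label 3 fell at 0.5 µM (13.2%), and 2 fell and 2 rose at 10 µM (21.8% and 20.1%), which is near the share over all genes. In PC3 1 rose at 0.5 µM (6.66%), and 2 fell and 1 rose at 10 µM (14.0% and 16.1%). In NCI-H660 1 fell at 0.5 µM (3.27%) and 2 at 10 µM (16.8%). LCOR and LCORL, whose long forms join PRC2 as accessory subunits, were among those that rose with both labels at 10 µM (LCORL 1.18 and 1.08, adjusted p = 0.00136 and 0.00395).

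KDM6A and KDM6B, the demethylases that remove the PRC2 mark, rose on the arrays labelled VCaP and passed in no other set. Of all detected genes, 11.8% and 20.1% rose there at 0.5 and 10 µM. KDM6B rose by 0.58 (adjusted p = 0.0632) and 1.08 (adjusted p = 0.00075), and KDM6A by 0.5 (adjusted p = 0.0232) and 0.43 (adjusted p = 0.0268).

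Among partners of DNA methylation, CDCA7 and HELLS, which together remodel chromatin for the methyltransferases, fell with both labels. CDCA7 changed by -1.76 and -2.24 with the LNCaP label (adjusted p = 2.92e-05 and 7.93e-07) and by -1.79 and -2.2 with the VCaP label (adjusted p = 2.57e-05 and 1.83e-06). HELLS changed by -0.76 and -0.74 (adjusted p = 0.00266 and 0.00139) and by -2.19 and -2.16 (adjusted p = 5.36e-07 and 3.07e-07). UHRF2, the paralogue of UHRF1, rose with the LNCaP label (0.82 and 0.75, adjusted p = 0.00336 and 0.00272). In NCI-H660 HELLS rose at 10 µM (0.53, adjusted p = 0.0244), as DNMT1 did. Of the 7 partners detected, 4 and 5 fell with the LNCaP label, 4 and 4 with the VCaP label, 0 and 1 in PC3, and 0 and 0 in NCI-H660, beside lower shares over all detected genes of 16.5% and 26.7%, 13.2% and 21.8%, 4.44% and 14.0%, and 3.27% and 16.8%.

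The enzymes of active demethylation, TET1, TET2, TET3 and TDG, all fell in PC3 at 10 µM, where 14.0% of detected genes were lower. TET2 changed by -0.76 (adjusted p = 0.0451) and TET3 by -0.63 (adjusted p = 0.0725), and TET1 lay near background there. In NCI-H660 at 10 µM TET1 fell by 1.04 (adjusted p = 0.0859) and TET2 by 0.99 (adjusted p = 0.0101), beside the fall of DNMT3A. There 16.8% of detected genes were lower. TDG also fell with the LNCaP label (-0.42, adjusted p = 0.0279, and -0.47, adjusted p = 0.00781) and in PC3 at 0.5 µM (-0.39, adjusted p = 0.0941). None of these enzymes was called with the VCaP label.

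Genes described elsewhere as repressed by EZH2 or silenced by methylation were read as a pair of lists. Of the 4 EZH2-repressed genes detected with the LNCaP label, 1 fell and 1 rose at 0.5 µM (16.5% and 17.4% of detected genes). At 10 µM 1 fell and 2 rose (26.7% and 27.1%). CDKN1C, a cyclin-dependent kinase inhibitor, rose with that label from a mean of 420.9 to 3103 (2.88, adjusted p = 1.79e-06) and 23210 (5.78, adjusted p = 1.71e-09). Of the 5 detected with the VCaP label none rose, and 1, CDKN2A, fell at each concentration (-0.56, adjusted p = 0.0637, and -0.9, adjusted p = 0.00215), beside lower shares of 13.2% and 21.8%. At 10 µM 1 fell and 1 rose of 7 detected in PC3 (14.0% and 16.1%), and 1 fell and 1 rose of 6 in NCI-H660 (16.8% and 16.9%). Any link of these genes to the level of EZH2 was not tested. The other list held genes known for promoter methylation. At 10 µM, 3 of 5 detected fell and 1 rose with the LNCaP label, 1 of 5 fell and 1 rose with the VCaP label, 4 of 7 fell in PC3, and 1 of 4 fell in NCI-H660, beside lower shares of 26.7%, 21.8%, 14.0% and 16.8% over all detected genes. RASSF1, a tumour suppressor of this list, fell at 10 µM in all 4 sets, by 0.69 with the LNCaP label (adjusted p = 0.00329), 1.01 with the VCaP label (adjusted p = 0.000304), 0.53 in NCI-H660 (adjusted p = 0.0309) and, least clearly, 0.42 in PC3 (adjusted p = 0.0954). PTGS2, the inducible cyclooxygenase, fell in PC3 from a mean of 4008 to 180.7 and 105.5 (-4.47, adjusted p = 0.0957, and -5.25, adjusted p = 0.0216). APC, a negative regulator of Wnt signalling, rose at 10 µM with the LNCaP label (1.12, adjusted p = 0.000786) and with the VCaP label (0.6, adjusted p = 0.0532). Protein, histone marks and DNA methylation were not measured on these arrays.

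Proliferation genes fell in the labelled sets in which UHRF1 and DNMT1 fell, and their part in these falls was not tested. Of 17 such genes (MCM2, MCM5, E2F8, RRM2 and others), 12 fell at 0.5 µM and 13 at 10 µM with the LNCaP label, and all 17 at each concentration with the VCaP label. In PC3 2 and 9 fell, and in NCI-H660 0 and 4. The lower shares over all detected genes were 16.5% and 26.7% with the LNCaP label, 13.2% and 21.8% with the VCaP label, 4.44% and 14.0% in PC3, and 3.27% and 16.8% in NCI-H660. BUB1, a mitotic checkpoint kinase, rose with the LNCaP label (0.29, adjusted p = 0.0777, and 0.48, adjusted p = 0.00267). Their summed signal went from 65998 and 66743 to 39863 and 40342 on the LNCaP-labelled arrays and from 65927 and 66461 to 15629 and 16091 on the VCaP-labelled arrays, giving the vehicle arrays and then those at 10 µM. In PC3 the sums were 72261 and 72658, then 55111 and 58458, and in NCI-H660 93020 and 96057, then 87564 and 87943. The median change of the 17 genes was -0.9 and -1.35 with the LNCaP label, -2.04 and -2.32 with the VCaP label, -0.19 and -0.44 in PC3, and -0.2 and -0.19 in NCI-H660. UHRF1 changed further than that median in both labelled sets at each concentration. On the arrays labelled LNCaP at 10 µM EZH2 stood at 0.02, and 13 of the 17 genes were lower. In NCI-H660 at 10 µM DNMT1 rose (0.41), a call lost without any one of the 4 arrays behind it, and 4 of the 17 genes fell and 0 rose. What these values mean for the part of proliferation was not tested.

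**Figure D4:**
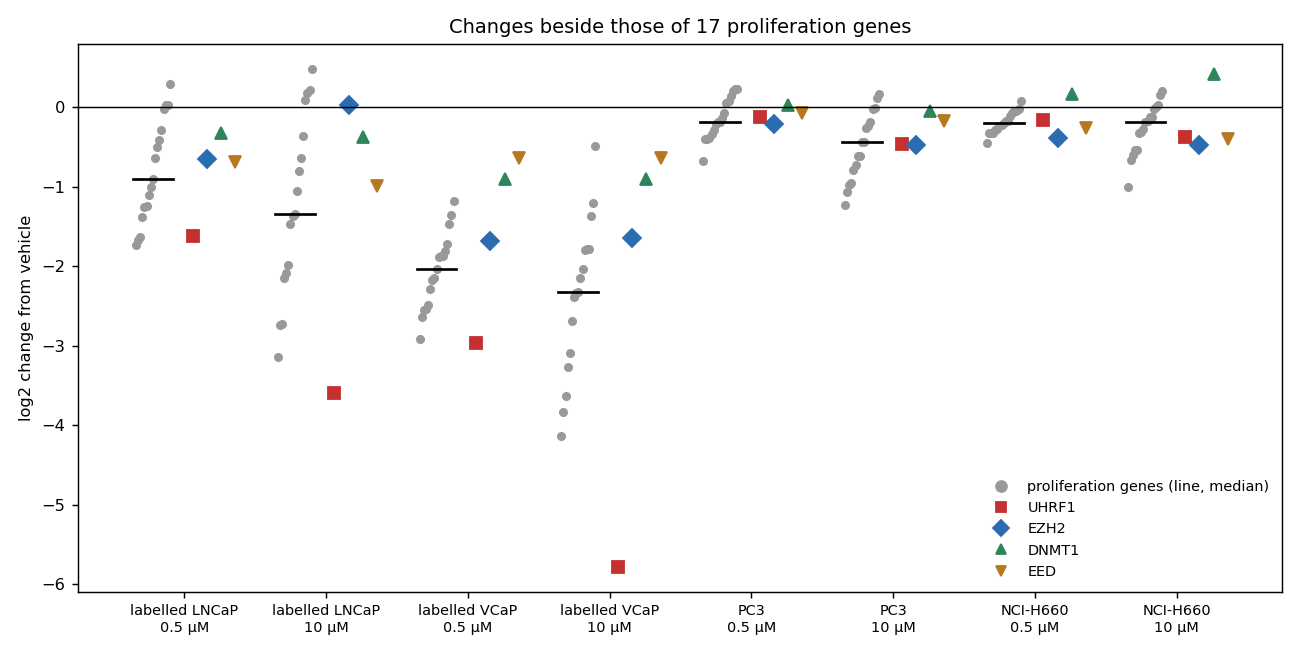
Log2 change from vehicle of 17 proliferation genes (grey dots, sorted; black line, median) beside UHRF1, EZH2, DNMT1 and EED, for each labelled line and concentration. UHRF1 lies among or below the lowest proliferation genes with both labels, and EZH2 lies at 0.02 with the LNCaP label at 10 µM; fitted changes of genes under a signal of 100 are plotted as fitted.

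The genes whose signals followed EZH2 most closely over the 24 arrays, after each line's own mean was subtracted, were KLF4 (r = 0.955), DCLRE1B (0.944), TPX2 (0.928), CDCA5 (0.926) and GTSE1 (0.921), out of 9317 genes with a vehicle signal of at least 100 in all 4 lines. For UHRF1 they were DTL (0.982), MCM5 (0.97), TRIAP1 (0.969), PEX10 (0.966) and CAMK2N1 (0.965). The members lay far down both orders. For EZH2 the closest were DNMT1 (0.724), UHRF1 (0.641) and EED (0.636, by its brighter probe set), at ranks 370, 686 and 705. Its correlation with EZH1 was -0.509. For UHRF1 they were EED (0.792, by the same probe set) and DNMT1 (0.749), at ranks 611 and 883 among the 9317 genes. UHRF1 had -0.803 with EZH1. These are descriptions of 24 arrays that share lines and treatments, so they carry no test.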

How the data were processed

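Cells from 4 lines were profiled in 12 groups of 2 independent biological replicates on Affymetrix U133 Plus 2.0 arrays. The deposited values are linear MAS5 signal intensities, scaled by the authors to a mean of 500. The number of arrays limits the precision. Intensities were log2 transformed here. Of 54675 probe sets, 62 controls were left out; platform annotation gave 1 symbol to 41091, several to 1801 and none used here to 11721. A gene took its brightest probe set. One model of all 24 arrays was fitted with limma 3.58.1 in R 4.3.3, with Benjamini-Hochberg adjustment over 54613 probe sets per contrast. A call needed an adjusted p under 0.1 and a mean of at least 100 in either group. Against a group under 100 a fold is given as a lower bound. Ratios of EZH2 to the other members were added to the table as further features and adjusted with it. Ratios to all genes were fitted and adjusted apart. All 9 members were named, with up to 4 genes per list and comparison by size of change, and the 5 nearest to EZH2 and UHRF1. The members and lists were chosen with earlier results of these data known. Alternatives covered the floor, normalization, centring, variance trend, each line alone, a replicate block, thresholds, probe sets and left-out arrays. The fit was tested on simulated data. Promoter windows came from RefSeq (GRCh38.p14), read with Python 3.11.15. Groups of 2 arrays were not tested for outlying values.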

Additional observations from a re-analysis of the deposited data

Results flagged for a closer look

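Responses that differed between lines by an interaction contrast in limma are given here as log2 differences, each the change in the first set minus the change in the second. For the arrays labelled LNCaP against those labelled VCaP, the difference at 0.5 µM was 1.03 for EZH2 (adjusted p = 0.00653), 0.59 for DNMT1 (adjusted p = 0.092) and 1.35 for UHRF1 (adjusted p = 0.0111). At 10 µM it was 1.66 for EZH2, 0.52 for DNMT1, 2.18 for UHRF1 and 0.8 for DNMT3B, with adjusted p of 9.32e-05, 0.0783, 0.00018 and 0.058. The DNMT1 difference was called in 5 of the 24 fits that left out 1 array at 0.5 µM and in 15 at 10 µM.

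For the mean of these sets against the mean of PC3 and NCI-H660, the difference at 0.5 µM was -0.87 for EZH2, 0.61 for EZH1, -0.5 for EED, -0.71 for DNMT1 and -2.15 for UHRF1. At 10 µM it was 0.66 for EZH1, -0.52 for EED, -0.82 for DNMT1, -4.27 for UHRF1 and 0.55 for DNMT3A. The EED differences are those of its brighter probe set. The EZH1 difference at 0.5 µM was called in 16 of the 24 fits that left out 1 array. The UHRF1 differences at 10 µM include a group whose signal was under 100, so their sizes depend on values near background. Proliferation genes fell in the same sets, and their part in these differences was not tested.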

How the results depend on the processing

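Against vehicle, 29 member calls were made; 16 were kept in all 24 fits that left out 1 array and 13 were lost in at least 1. The falls of UHRF1 with both labels, of EZH2 with the VCaP label and with the LNCaP label at 0.5 µM, of DNMT1 with the VCaP label at 10 µM and of DNMT3A in NCI-H660 at 10 µM passed under the 8 alternatives other than the fold minimum. With each line fitted alone, members changed numbered 2 and 3 (LNCaP label, 0.5 and 10 µM), 2 and 4 (VCaP label), 0 in PC3 at 10 µM, and 0 and 1 in NCI-H660; none changed between concentrations (0), 7 ratios changed at 0.5 µM, and 36 and 85 other pathway genes did. A fold over 2 left 1 and 1 with the LNCaP label, 2 and 2 with the VCaP label, 0 in PC3 at 10 µM, 0 and 1 in NCI-H660, 2 between concentrations, 1 and 1 for the labelled pair against the other lines, 2 for LNCaP against VCaP at 10 µM, 12 between vehicle groups, 8 and 9 ratios, and 35 and 59 pathway genes. Averaging all probe sets gave 2 (LNCaP label, 10 µM), 0 (NCI-H660, 0.5 µM) and 3 (pair response, 0.5 µM). It turned EED in NCI-H660 at 10 µM to 0.11, EED of the VCaP label against PC3 in vehicle to 0.26, and the ratio of EZH2 to EED with the LNCaP label at 0.5 µM to -0.4. An intensity trend gave at 0.5 µM 1 for PC3 and 2 for NCI-H660, and 9 and 11 ratios. Median centring gave 1 in PC3 at 10 µM and 0 in NCI-H660 at 0.5 µM, and turned EED of the LNCaP label against NCI-H660 in vehicle to 0.1. An adjusted p under 0.05 gave 0 in NCI-H660 at 0.5 µM and 2 for LNCaP against VCaP at 10 µM. The cause of these moves was not tested.

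Replicate numbers did not pair the samples (correlations of deviations from -0.056 to 0.076). With the replicate block, 2 responses differed between the LNCaP and VCaP labels at 10 µM, and no other count moved by over 1.5 times. Leaving out single arrays gave 3 to 4 and 3 to 5 members with the LNCaP label, 4 to 6 and 4 to 8 with the VCaP label, 0 to 1 and 1 to 3 in PC3, and 0 to 1 and 1 to 4 in NCI-H660. PC3 at 0.5 µM reached 1 without 0.5 µM replicate 1 or either 10 µM array. Between concentrations the range was 3 to 4; for responses it was 2 to 3 and 2 to 4 (LNCaP against VCaP) and 4 to 5 and 5 to 6 (the pair against the others). It was 33 to 37 between vehicle groups, 11 to 15 and 17 to 22 for ratios, and 66 to 84 and 126 to 142 for pathway genes. Signals near background limit UHRF1 with the VCaP label at 10 µM.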

Other observations

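Polycomb complex 1, which compacts chromatin marked by PRC2, had members that fell and members that rose. Of 15 subunits detected, 4 fell and 4 rose with the LNCaP label at 0.5 µM and 3 fell and 5 rose at 10 µM, beside 33.9% and 53.8% of all detected genes changed in either direction. With the VCaP label 2 fell and 3 rose, then 3 fell and 4 rose, beside 25.0% and 41.9%. PC3 had 6 lower and 2 higher at 10 µM, and NCI-H660 had 4 lower and 2 higher, beside 30.2% and 33.8%. Among 7 detected readers of methylated CpG sites, ZBTB38 moved in opposite directions between lines. It fell in PC3 (-0.87 and -1.34) and in NCI-H660 (-0.68 and -1.54) and rose with the LNCaP label (0.94 and 0.51); the difference was not tested.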
